A study of Mus musculus with 6 samples.

Results

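The chemokine genes of the intestinal epithelium and its crypts were described here in jejunal crypts of mice deficient for Sox9, a transcription factor of the crypt base. The set held 10 genes, Ccl6, Ccl9, Cklf, Ccl20, Ccl25, Ccl28, Cxcl1, Cxcl10, Cxcl16 and Cx3cl1, out of 18193 genes that the array annotation names by a single symbol. Every probe set whose annotation gave only the symbol of a member was taken, which gave 27 probe sets. The genes were chosen by measured values, the lower KO levels of Ccl6, Ccl9 and Cklf on these same arrays. For that reason the KO and WT values of these 3 genes are a description, with no test.

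Crypt epithelium came from 3 Sox9-deficient mice (KO 1 to KO 3) and 3 wild-type littermates (WT 1 to WT 3), all C57BL/6 and 3 months old, untreated as far as the labels say. The allele, the promoter that removed Sox9 and the litter of each mouse were not named in the labels. RNA of each mouse was hybridised to 1 single-colour array, and a level is a log2 intensity after GCRMA, a method that corrects background by probe sequence. The tests took in every probe set whose 6 values averaged 4 or more, 18108 in all, and 16 of the 27 chemokine probe sets (8 of the 10 genes) were among them. An array carries no read depth, and 3 mice per group limit the precision.

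Chemokines are small secreted proteins that draw leukocytes along a gradient by binding G protein-coupled receptors. In the small intestine the epithelium itself makes several of them. Ccl25 brings lymphocytes that carry Ccr9 to the small bowel, Ccl28 attracts IgA-secreting plasma cells through Ccr10, and Ccl20 attracts cells with Ccr6 to the epithelium over lymphoid follicles. Cxcl16 and Cx3cl1 are made as membrane proteins and can be shed by the proteases Adam10 and Adam17. Cxcl1 draws neutrophils and Cxcl10 draws activated T cells. Ccl6 and Ccl9 are rodent chemokines that bind Ccr1, known from myeloid cells and also from intestinal epithelium. Cklf encodes the chemokine-like factor, a member of the CMTM family of membrane-spanning proteins.

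The labels were first set against the arrays. One Sox9 probe set (1451538_at) read 2.44, 2.75 and 2.42 on KO 1 to KO 3, against 7.61, 5.96 and 5.84 on WT 1 to WT 3. The other tested Sox9 probe set (1424950_at) overlapped between the groups and showed no loss. It read 5.33, 6.34 and 5.76 on KO 1 to KO 3, against 6.23, 5.38 and 2.68 on WT 1 to WT 3. Epithelial genes were bright in both groups, with Epcam at 14.8 ± 0.35 in KO mice and 14.8 ± 0.28 in WT mice (mean ± SD of 3). The Y-linked genes averaged 2.74, 2.65 and 2.64 on KO 1 to KO 3, against 7.59, 8.19 and 2.67 on WT 1 to WT 3, so WT 3 was the only control with a signal as low as the mutants. The difference between the 3' and 5' Gapdh control probe sets lay between 0.37 and 0.91 in KO, and at 0.61, 0.65 and 1.75 on WT 1 to WT 3.

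Ccl6 and Ccl9 were lower in every KO mouse than in any WT mouse. They are direct neighbours among the protein-coding genes of chromosome 11, between Ccl5 and Ccl3, in the RefSeq gene table of assembly GRCm38.p6. Their start regions are shown because both genes moved together. Each sequence runs 5′ to 3′ on the minus strand of GRCm38.p6, from 250 bases before the start of the gene to 50 bases after it, as RefSeq gives it. Capitals mark the stretch without a gap that gave the pair its best match score, explained below (40 bases, of which 36 are identical).

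Ccl6, chr11:83593038-83593337: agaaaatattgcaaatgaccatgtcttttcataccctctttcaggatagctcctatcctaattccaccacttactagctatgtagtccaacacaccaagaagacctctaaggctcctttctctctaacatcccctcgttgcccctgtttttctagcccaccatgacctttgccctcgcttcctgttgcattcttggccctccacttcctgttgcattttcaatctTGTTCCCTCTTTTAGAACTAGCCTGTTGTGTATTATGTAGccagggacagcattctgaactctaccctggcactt

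Ccl9, chr11:83578587-83578886: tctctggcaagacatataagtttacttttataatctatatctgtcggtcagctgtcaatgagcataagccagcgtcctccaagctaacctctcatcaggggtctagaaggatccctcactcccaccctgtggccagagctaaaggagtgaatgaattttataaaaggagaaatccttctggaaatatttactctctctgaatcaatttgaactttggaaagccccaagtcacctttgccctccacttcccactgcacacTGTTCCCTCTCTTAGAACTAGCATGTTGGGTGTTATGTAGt

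The matching stretch covered bases 226 to 265 of the Ccl6 window and bases 260 to 299 of the Ccl9 window. The stretch therefore spans the start of Ccl6 and lies past the start of Ccl9. Scored at 1 per identical base and -2 per mismatch, it reached 28, while the 16 pairings of either window with the windows of the other matched members reached at most 10. The windows of the neighbours Ccl5 and Ccl3 were not compared. The table held 10 windows for 9 of the 10 genes, and Cxcl16 was the gene without one. The SOX core AACAAT, searched on both strands, was in 0 of these 10 windows and in 10.7% of all 32851 windows of that length. The TATA box TATAAA was in a Ccl25 window and in those of Cx3cl1 and Ccl9, and in 13.6% of all windows. Such matches describe letters only.

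On its brighter probe set (1417266_at) Ccl6 read 11.59, 10.20 and 11.49 on KO 1 to KO 3, against 13.49, 12.69 and 13.39 on WT 1 to WT 3. All 3 mutants lay below all 3 controls, with KO 2 lowest, and the highest KO array stood 1.10 below the lowest WT array. The means were 11.1 ± 0.77 in KO mice, against 13.2 ± 0.44 in WT mice (SD, n = 3 each). The difference was -2.09 ± 0.43 (SE) on the log2 scale, or 4.27-fold lower in KO.

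The second Ccl6 probe set (1420249_s_at) read 9.48, 7.94 and 9.23 on KO 1 to KO 3, against 11.69, 11.17 and 11.61 on WT 1 to WT 3. The mice fell in the same order in KO as on the first, and the difference was -2.61 ± 0.42 (SE), or 6.10-fold lower in KO.

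Ccl9 followed Ccl6 mouse by mouse. Its probe set 1417936_at read 8.92, 6.47 and 8.34 on KO 1 to KO 3, against 10.31, 9.85 and 10.15 on WT 1 to WT 3. Its probe set 1448898_at read 6.99, 5.46 and 6.72 on KO 1 to KO 3, against 8.93, 7.996 and 8.31 on WT 1 to WT 3. Again no KO array reached a WT array, KO 2 was the lowest of the 6, and WT 1 was the highest. The differences were -2.19 ± 0.61 and -2.03 ± 0.45 (SE), or 4.57-fold and 4.07-fold lower in KO.

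**Figure D1:**
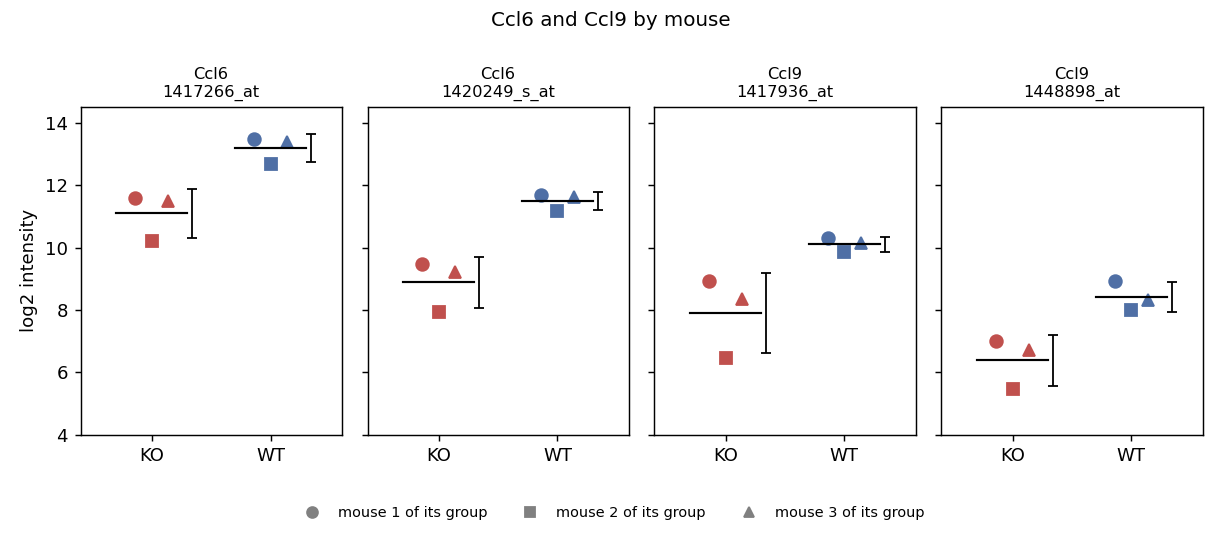
Log2 intensity (vertical axis) of the 2 Ccl6 and the 2 Ccl9 probe sets in KO (red, left) and WT (blue, right) mice; each point is a mouse, the line is the group mean and the bar 1 SD. In all 4 panels the KO points lie below the WT points and the square of KO 2 is lowest.

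The 4 pairings of a Ccl6 with a Ccl9 probe set had Pearson correlations between 0.97 and 0.99 over the 6 arrays. Taken from the group means, so that the difference between KO and WT no longer counted, the correlations were between 0.93 and 0.99. These arrays share their normalization, and the values are a description. The genes with the most similar pattern over the 6 arrays were Hoxa5 (r = 0.994), Galnt5 (0.993) and Vldlr (0.983) for Ccl6, and Galnt5 (0.992), Ttc39a (0.987) and Cracr2b (0.982) for Ccl9. Hoxa5, a homeobox transcription factor gene, averaged 7.87 in KO and 10.1 in WT, and Galnt5, which starts the attachment of mucin-type sugar chains, averaged 4.47 in KO and 5.77 in WT.

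Cklf was lower in KO on 1 of its probe sets and level on the others. Probe set 1436242_a_at read 9.78, 7.46 and 7.27 on KO 1 to KO 3, against 11.66, 11.62 and 11.69 on WT 1 to WT 3. The controls lay within 0.1 of each other on that probe set, while KO 1 stood well above KO 2 and KO 3. The means were 8.17 ± 1.40 in KO mice, against 11.7 ± 0.03 in WT mice (SD, n = 3 each). The difference was -3.49 ± 0.65 (SE), or 11.2-fold lower in KO.

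The remaining Cklf probe sets showed no such gap. Probe set 1425860_x_at read 6.06, 6.08 and 5.10 on KO 1 to KO 3, against 5.90, 5.66 and 5.84 on WT 1 to WT 3 (difference -0.05 ± 0.30, SE). Probe set 1451374_x_at read 4.63, 3.90 and 3.59 in KO, against 4.12, 3.97 and 3.97 in WT (difference 0.02 ± 0.29, SE). The groups overlapped on both. Just under the filter, 1424495_a_at averaged 3.75 ± 0.56 in KO mice, against 3.77 ± 0.07 in WT mice (SD, n = 3 each), and the last 3 lay below 2.8 on all 6 arrays.

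**Figure D2:**
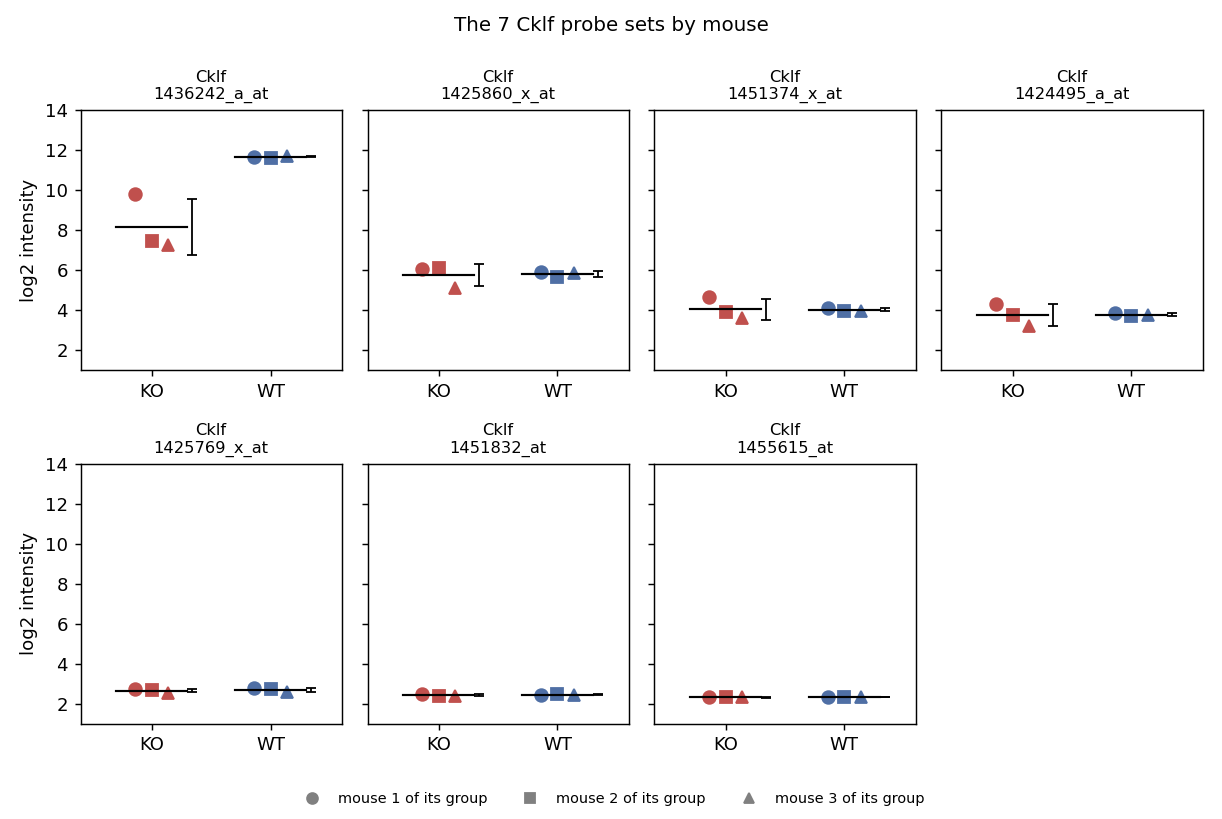
Log2 intensity (vertical axis) of the 7 Cklf probe sets in KO (red, left) and WT (blue, right) mice, with points for mice, lines for means and bars for 1 SD. The KO points lie below the WT points only on 1436242_a_at; on the 3 next brightest the groups overlap, and the other 3 lie near the floor.

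In the platform's naming an x in the identifier marks a probe set whose probes can also match other transcripts, and the labels and annotation do not say which Cklf transcripts each probe set reads. The lower Cklf value therefore rests on 1 of 3 tested probe sets. The WT values of that probe set varied by far less than its KO values. Over the 6 arrays the genes most like it were the alpha-defensin gene Defa39 (r = 0.987; 13.6 in KO and 15.9 in WT), Lrrc31 (0.975) and Ficd (0.974).

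Set against all tested probe sets, 5 of the 16 chemokine probe sets kept all KO mice below all WT mice, where 4.03% of all tested probe sets did. These 5 are probe sets of Ccl6, Ccl9 and Cklf, picked for being lower, and nothing is read from that share. None of the 16 passed limma's test at an adjusted p of 0.05 (0.011% of all tested probe sets did, 2 of 18108). The median difference was -0.05 over the 16 and 0.03 over all 18108.

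**Figure D3:**
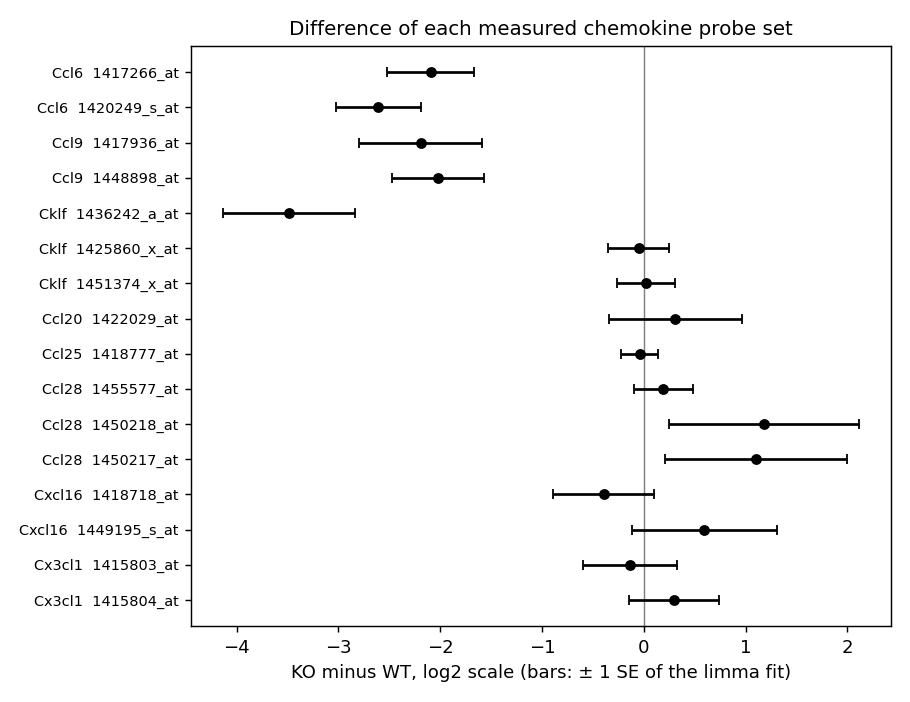
KO minus WT difference (horizontal axis, log2 scale) of each of the 16 tested chemokine probe sets, with bars of 1 SE from the limma fit. The Ccl6, Ccl9 and first Cklf probe sets lie between -3.49 and -2.03, and the other 11 between -0.39 and 1.18.

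Of the 7 chemokine genes that were not picked for their values, 5 were measured above the filter on 9 probe sets, and the groups overlapped on all 9. Their differences ran from -0.39 to 1.18, with 6 above 0 and 3 below, and each had a limma adjusted p of 0.999.

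Ccl25, the small bowel homing chemokine, was bright and steady. It read 14.22, 14.04 and 14.01 on KO 1 to KO 3, against 14.03, 14.34 and 14.03 on WT 1 to WT 3. The difference was -0.04, with a 95% interval from -0.47 to 0.39, the narrowest of the chemokine probe sets. Its other probe set lay under the filter, at 3.61 ± 0.20 in KO mice, against 3.47 ± 0.01 in WT mice (SD, n = 3 each).

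Ccl28, the ligand for IgA plasma cells, was set apart by a single control. Probe set 1455577_at read 9.82, 10.42 and 10.52 on KO 1 to KO 3, against 10.05, 10.47 and 9.67 on WT 1 to WT 3 (difference 0.19, 95% interval -0.50 to 0.88). Probe set 1450218_at read 7.51, 8.38 and 7.58 in KO, against 7.81, 7.77 and 4.35 on WT 1 to WT 3. Probe set 1450217_at read 7.06, 7.27 and 6.73 in KO, against 6.82, 7.23 and 3.69 on WT 1 to WT 3.

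On 1450218_at and 1450217_at the other 5 arrays lay close together and WT 3 lay at least 3 log2 units below them, which 1455577_at did not show. The differences of 1.18 and 1.10 became 0.03 and -0.01 without WT 3. WT 3 also had the largest Gapdh 3' minus 5' difference, and with a term for that difference both Ccl28 values were 0.17. That term was chosen after the data were seen and rests largely on WT 3, so it adds little to leaving WT 3 out. The part of the Gapdh difference in the Ccl28 values was not tested.

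Ccl20, the ligand of Ccr6, read 6.24, 4.76 and 6.61 on KO 1 to KO 3, against 4.996, 6.75 and 4.94 on WT 1 to WT 3. High and low mice occurred in both groups, and the difference of 0.31 had a 95% interval from -1.26 to 1.88. Among the membrane-bound ligands, Cxcl16 probe set 1449195_s_at read 7.23, 5.02 and 6.36 in KO, against 4.72, 6.81 and 5.30 in WT. It split the mice as Ccl20 did, with KO 2 lowest in KO and WT 2 highest in WT, and the correlation with Ccl20 over the 6 arrays was 0.89. Cxcl16 probe set 1418718_at read 6.86, 5.08 and 6.20 in KO, against 6.12, 7.06 and 6.14 in WT. The Cxcl16 differences had opposite signs, 0.59 (95% interval -1.12 to 2.31) and -0.39 (-1.58 to 0.80).

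Cx3cl1, the other membrane-bound ligand, read 7.53, 7.87 and 8.75 on KO 1 to KO 3, against 8.10, 8.97 and 7.49 on WT 1 to WT 3 on probe set 1415803_at. Probe set 1415804_at read 4.90, 5.41 and 5.63 in KO, against 4.79, 5.95 and 4.32 in WT. KO 3 was highest in KO and WT 2 highest in WT on both, and the differences were -0.13 (95% interval -1.24 to 0.98) and 0.30 (-0.76 to 1.35). Its 2 further probe sets lay under the filter, below 2.6 on every array.

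**Figure D4:**
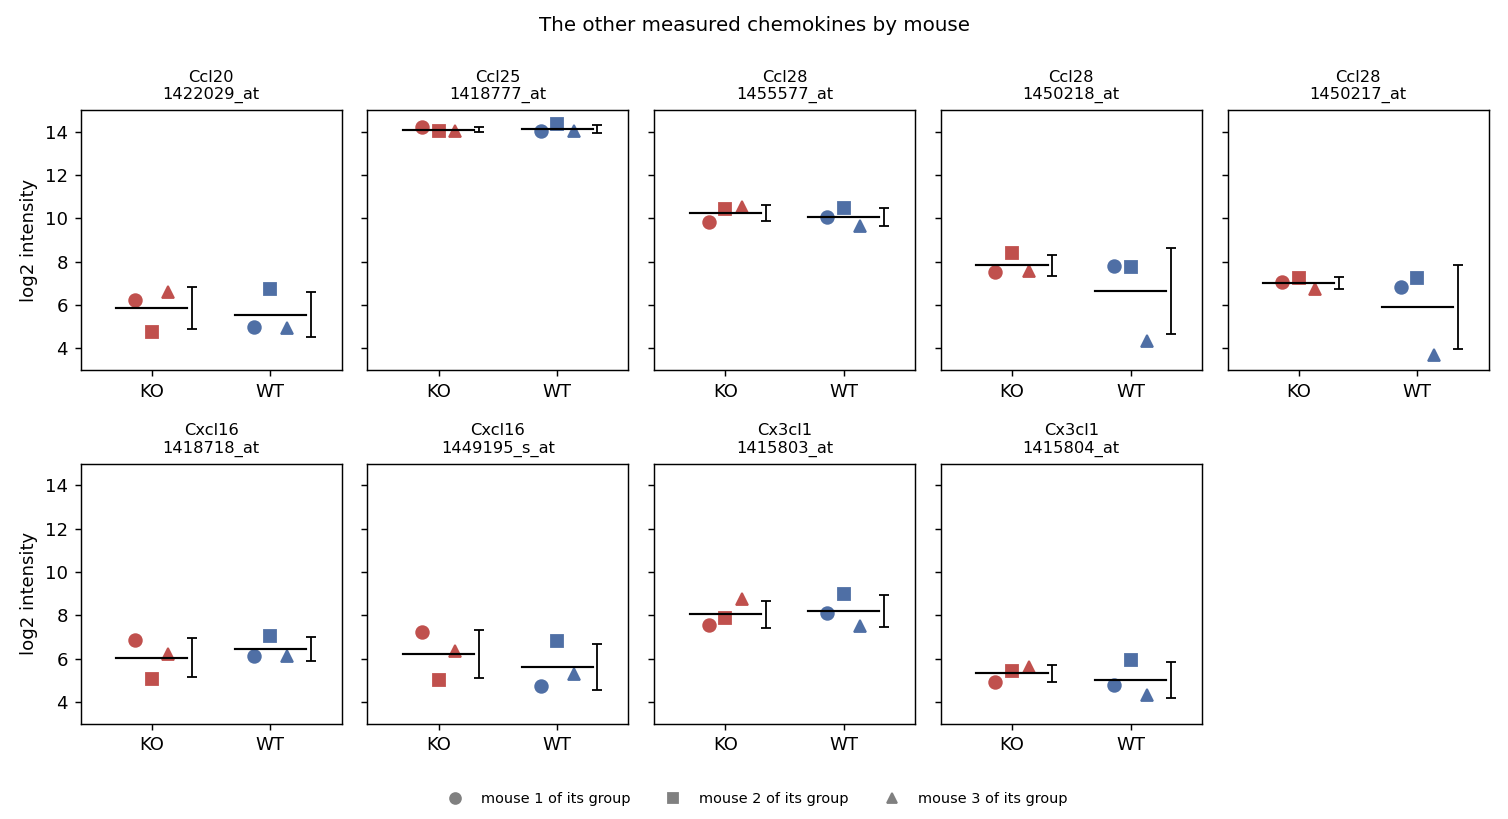
Log2 intensity (vertical axis) of the 9 tested probe sets of Ccl20, Ccl25, Ccl28, Cxcl16 and Cx3cl1 in KO (red, left) and WT (blue, right) mice, with points for mice, lines for means and bars for 1 SD. KO and WT points overlap in all 9 panels, and the triangle of WT 3 stands low on 2 Ccl28 probe sets.

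The inflammatory ligands were under the filter. Cxcl10 read 4.30, 3.24 and 3.59 on KO 1 to KO 3, against 3.31, 4.20 and 3.40 on WT 1 to WT 3, so KO 1 and WT 2 stood above the other mice. The 3 probe sets of Cxcl1 lay between 1.91 and 3.13 on all 6 arrays. On the brightest of them KO mice lay between 2.98 and 3.03 and WT mice between 3.04 and 3.13, without overlap but within 0.2 of each other. GCRMA draws such dim probe sets to a common floor, so their levels give no order between the groups.

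For the chemokines not picked for their values, the tested probe sets overlapped between the groups and differed between single mice. KO 2 was the lowest KO mouse for Ccl6, Ccl9, Ccl20, Cxcl16 and Cxcl10, but not for Cx3cl1 or the tested Ccl28 probe sets. Taken from the group means, Ccl20 correlated with Cxcl16 at 0.87 and 0.89 on its 2 probe sets. In the same way Ccl28 (1455577_at) correlated with Cx3cl1 at 0.91 and 0.92. The other tested Ccl28 probe sets had lower values with Cx3cl1, between 0.57 and 0.70. These values over 6 arrays are a description.

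The receptors were mostly too dim to compare. Of 21 chemokine receptor genes on the array under 1 symbol, 20 averaged between 1.88 and 3.66, under the filter. These included Ccr1 (3.17), the receptor of Ccl6 and Ccl9, and also Ccr3 (2.21), Ccr6 (2.46), Ccr10 (1.96), Cxcr2 (2.22), Cxcr3 (3.66), Cxcr6 (3.35) and Cx3cr1 (2.77). Ccr1 stood at 4.25 on KO 1, whereas the other 5 arrays spanned 2.92 to 3.04. The one tested receptor was Ccr9, which binds Ccl25. It read 6.31, 5.28 and 5.28 on KO 1 to KO 3, against 4.05, 6.17 and 5.12 on WT 1 to WT 3 (difference 0.52, limma adjusted p = 0.999), and the groups overlapped.

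Other genes of the pathway also missed the test. Over the lists of receptors, other chemokines, CMTM relatives, sheddases and inducing signals, 92 of 100 genes were on the array and 32 were tested. Their 52 probe sets gave 0 calls at limma's adjusted p and 0 at an unadjusted p under 0.05, against 3.62% of all tested probe sets. The groups did not overlap for 2 of the 32 genes, against 9.53% of the 9679 genes tested, each by its brightest probe set. The median difference of the 32 was 0.05.

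Of 26 other chemokine ligands on the array 3 were tested, Ccl5 (KO 10.004 ± 0.42, WT 9.38 ± 1.70, SD, n = 3 each; difference 0.63), which T cells make, the platelet chemokine gene Pf4 (0.45) and the Cxcr3 ligand gene Cxcl11 (-0.03). Ccl5 lies on the other side of Ccl9 from Ccl6, and ranged from 7.90 on WT 1 to 11.23 on WT 2, with all KO mice in between. Of the 9 CMTM genes, relatives of Cklf, 3 were tested, Cmtm7 (0.54), Cmtm4 (-0.09) and Cmtm6 (-0.20). The sheddase gene Adam10 read 11.09, 11.55 and 11.65 in KO, against 11.76, 11.89 and 11.73 in WT, without overlap (difference -0.37, limma adjusted p = 0.999), and Adam17 differed by 0.07.

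Among 17 tested genes of NF-kB and IL-17 signalling, which induce Ccl20 and Cxcl1, 10 were higher and 7 lower, with a median of 0.03. Those with the smallest p were the NF-kB subunit genes Rela (0.33) and Nfkb2 (0.32, no overlap), the cytokine gene Il1b (0.99) and the adaptor gene Traf6 (-0.22). Among 6 tested genes of the interferon gamma pathway, which induces Cxcl10, the median was 0.04. Its receptor gene Ifngr2 differed by 0.39, the kinase gene Jak1 by 0.20, and the transcription factor genes Irf8 by -0.15 and Irf1 by 0.12. Each of these named genes had a limma adjusted p of 0.999.

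Because leukocytes make Ccl6 and Ccl9 too, their markers were read on the same arrays. In bulk RNA, fewer cells of a type and less RNA per cell cannot be told apart. All 7 general leukocyte markers were tested and all 7 had positive differences (median 1.55). None of their 10 probe sets was called at limma's adjusted p, against 0.011% of all tested probe sets, and none of the 7 genes had an unadjusted p under 0.05, against 3.93% of all tested genes. All KO mice lay above all WT mice for 3 of the 7, Ptprc, Coro1a and Rac2 (named after its values were seen). Groups did not overlap for 9.53% of all tested genes. The gaps were narrow. The lowest KO and highest WT values were 8.684 and 8.667 for Ptprc, 8.455 and 8.454 for Coro1a, and 6.812 and 6.794 for Rac2. Nothing is read from that share. Lcp1, the brightest of the list, overlapped between the groups (difference 0.60). WT 1 read lowest for each of the 7. Ptprc, which encodes CD45, read 8.68, 9.53 and 8.82 on KO 1 to KO 3, against 5.73, 8.50 and 8.67 on WT 1 to WT 3. The summed linear level of the 7 markers lay between 1976 and 3129 in KO and between 473 and 2130 in WT.

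Among the controls WT 1 had the lowest summed level of these leukocyte markers, and it also had the highest Ccl6 and Ccl9. The macrophage receptor gene Csf1r read 9.76, 7.12 and 8.36 on KO 1 to KO 3, against 2.87, 7.58 and 8.07 on WT 1 to WT 3. Among the mutants KO 2 was lowest for Csf1r, as for Ccl6 and Ccl9, but highest for Ptprc. Of 11 macrophage and dendritic cell markers 8 were tested, 7 were higher and 1 was lower. The lower one, also the only one of the 8 with an unadjusted p under 0.05 (3.93% of all tested genes), was Lyz2 (13.0 ± 0.16 in KO mice, against 14.1 ± 0.24 in WT mice; SD, n = 3 each; limma adjusted p = 0.443), a gene very similar in sequence to the Paneth cell gene Lyz1. The summed level of the 11 markers was 7941 to 10479 in KO and 16892 to 22699 in WT. Without Lyz2, left out after its values were seen, it was 422 to 2376 in KO and 253 to 719 in WT. The macrophage genes Itgam and Cd68 were under the filter, as were the 4 neutrophil markers on the array, between 2.24 and 2.93, and 7 of 8 stromal and endothelial markers. The part of leukocytes and macrophages in the Ccl6 and Ccl9 values was not tested.

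Lymphocyte markers were likewise uneven between mice. Of 7 T lymphocyte markers 6 were tested, all with positive differences (median 0.74), and their summed level was 2070 to 3303 in KO and 824 to 5388 in WT. Of 5 B and plasma cell markers on the array 4 were tested, all positive (median 2.02), with sums of 1261 to 16751 in KO and 120 to 2240 in WT. WT 2, the control with the highest Gzma (12.12), was also the control with the highest Ccl20 and Cxcl16. Among KO mice KO 1 was highest for Gzma (11.33) and Cxcl16, but KO 3 was highest for Ccl20 (6.61). The part of lymphocytes in these values was not tested.

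Markers of other epithelial cells were read in the same way. The 8 goblet cell markers were all tested, 6 were lower and 2 higher, and 0 had an unadjusted p under 0.05, near the 3.93% of all tested genes. Tff3, the trefoil factor of goblet cells, read 15.7 ± 0.12 in KO mice, against 15.8 ± 0.04 in WT mice (SD, n = 3 each), and the list median was -0.13. Goblet sums were 215219 to 245665 in KO and 231734 to 249540 in WT.

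All 5 Paneth cell markers were tested, with a median of -0.72, and 4 were lower. Of the 5, 3 had an unadjusted p under 0.05, against 3.93% of all tested genes, and the groups did not overlap for the same 3, Lyz1, Itln1 and Mmp7, against 9.53% of all tested genes. None was called at limma's adjusted p. The list was chosen with earlier results of these data known, so nothing is read from these shares. The lysozyme gene Lyz1 read 15.63, 15.87 and 16.07 on KO 1 to KO 3, against 16.60, 16.57 and 16.65 on WT 1 to WT 3 (difference -0.75, limma adjusted p = 0.914). The lectin gene Itln1 read 14.97, 15.12 and 15.49 in KO, against 15.90, 15.58 and 15.85 in WT (difference -0.58, limma adjusted p = 0.999). Ang4, which encodes an antimicrobial ribonuclease, overlapped between the groups (difference 0.06). Mmp7, the protease that activates alpha-defensins, was named after its values were seen and read 8.60, 6.82 and 8.52 on KO 1 to KO 3, against 13.28, 12.30 and 12.50 on WT 1 to WT 3 (difference -4.71, limma adjusted p = 0.156). KO 2 was the lowest KO mouse for Mmp7, as for Ccl6 and Ccl9, whereas KO 1 was the lowest for Lyz1, Itln1 and the summed Paneth level. The Paneth sums did not overlap, at 109757 to 147979 in KO and 169989 to 210896 in WT. The part of Paneth cells in the lower chemokine values was not tested.

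Enterocyte markers stood higher in KO. Of the 5 on the array all were tested, 4 were higher and 1 was lower, with a median of 0.77. An unadjusted p under 0.05 was found for 3 of the 5, against 3.93% of all tested genes, and the groups did not overlap for 2, against 9.53%, but none was called at limma's adjusted p. That list too was chosen with earlier results known, so nothing is read from these shares. Apoa4, an apolipoprotein gene, read 15.15, 14.87 and 15.25 on KO 1 to KO 3, against 13.66, 14.79 and 14.37 on WT 1 to WT 3 (difference 0.82, limma adjusted p = 0.999). The other gene without overlap was the trehalase gene Treh, named after its values were seen (difference 0.77). Fabp2, the intestinal fatty acid-binding protein gene and the brightest of the list, differed by -0.01, and the lactase gene Lct by 0.18. The sums were 95828 to 119763 in KO and 67849 to 98346 in WT, with WT 1 lowest. The part of enterocytes in the chemokine values was not tested.

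Of 11 markers of M cells and the epithelium over lymphoid follicles, where Ccl9 and Ccl20 are known to be made, 9 were tested and 7 were lower (median -0.27), with 1 at an unadjusted p under 0.05, against 3.93% of all tested genes. That gene, Pglyrp1, which encodes a peptidoglycan-binding protein, averaged 11.1 ± 0.71 in KO mice, against 12.5 ± 0.77 in WT mice (SD, n = 3 each; limma adjusted p = 0.999). Gp2, the M cell receptor gene, was under the filter. The sums were 1983 to 4619 in KO and 4122 to 10359 in WT, so the groups overlapped. Pglyrp1 made up most of these sums, as the brightest of the list (mean 11.8 over all arrays). The next brightest were Marcksl1 (mean 8.11, difference -0.48) and Tnfrsf11a (7.48, difference -0.01).

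**Figure D5:**
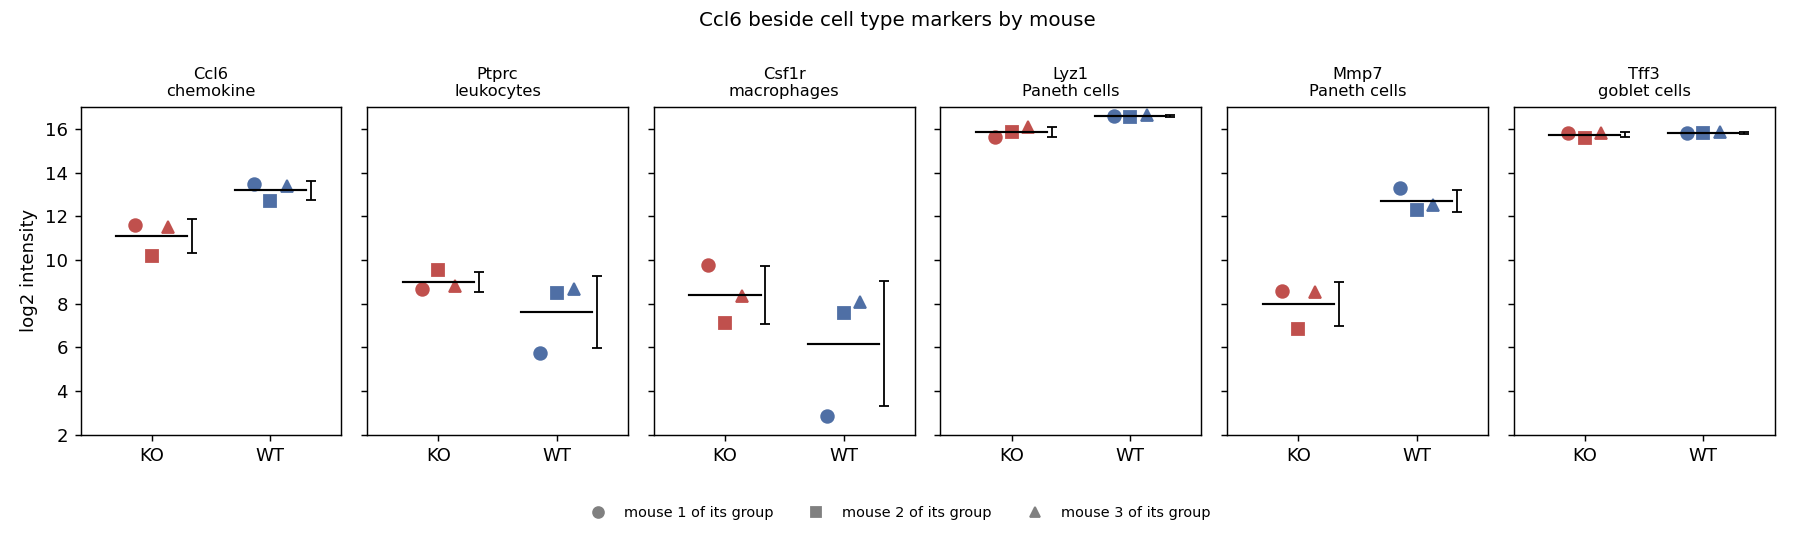
Log2 intensity (vertical axis) of Ccl6 (1417266_at) and of markers of leukocytes (Ptprc), macrophages (Csf1r), Paneth cells (Lyz1, Mmp7) and goblet cells (Tff3) in KO (red, left) and WT (blue, right) mice, with points for mice, lines for means and bars for 1 SD. WT 1, the blue circle, is lowest for Ptprc and Csf1r and highest for Ccl6. Among KO mice the square of KO 2 is lowest for Csf1r and Ccl6 and highest for Ptprc. Lyz1 and Mmp7 are lower in all KO mice.

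The Y-linked signal moved with the groups in part, since all KO mice and WT 3 were low. WT 3 read 13.39 for Ccl6, 10.15 for Ccl9 and 11.69 for Cklf on their brightest probe sets. With a term for the Y-linked signal the differences were -2.33 ± 0.64 (SE) for Ccl6, -2.25 ± 0.93 for Ccl9 and -3.49 ± 0.997 for Cklf, each with a wider error than without the term. That term separates Y-linked signal from genotype by WT 3 alone, the array that also had the largest Gapdh difference. The part of the Y-linked difference in the lower chemokine values was not tested beyond this. For Ccl28 the same term moved the differences to 3.44 and 3.32 on the probe sets where WT 3 stood low.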

How the data were processed

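The values deposited by the authors are log2 intensities of 45101 probe sets on 6 arrays, made with GCRMA per the submitters' processing notes, which also name limma, with versions and settings not given in the sources used here. The 64 array controls were left out. Of the 45037 others 34945 had 1 gene symbol, 932 several and 9160 none; 34741 probe sets of the 34945 matched RefSeq (GRCm38.p6) by gene identifier, and 0 symbols changed. The difference between the 2 groups was estimated, two-sided, by limma 3.58.1 (R 4.3.3; lmFit and eBayes) on probe sets averaging 4 or more, with Benjamini-Hochberg adjustment over all 18108 and a threshold of 0.05. In a simulation of this comparison of 18108 probe sets, 11.8% of changes of 1 log2 unit, 60.2% of 2 and 90.6% of 4 were recovered. It changed 200 random probe sets and drew normal noise independently at each probe set's own spread. Effects shared across an array were not in it, so these shares may not hold for the chemokines.

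The members and lists were chosen with earlier results of these data known. Lists used the brightest tested probe set of a gene. Named were all members, the receptors of members, Sox9 and the 3 genes most like each of Ccl6, Ccl9 and Cklf by Pearson correlation. Also named were up to 4 genes of smallest p per pathway list and up to 3 of the brightest per marker list. Mmp7, Rac2 and Treh were added after their values were seen. Gp2, Itgam and Cd68 were named only as genes under the filter. A summed level is the sum of unlogged values over a list, brightest probe set per gene. Mice are the replicates. Alternatives were the filter, a replicate block, quantile normalization, median centring, array weights, the prior, 1 probe set per gene, a Y-linked term and each array left out; a Gapdh term was chosen after seeing the data.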

Additional observations from a re-analysis of the deposited data

How the results depend on the processing

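The 5 lower probe sets of Ccl6, Ccl9 and Cklf kept a negative difference under each alternative that measured them. They were picked for being lower and their groups do not overlap, so leaving out an array could not turn the sign. Nothing is read from that sign. With an array left out in turn, Ccl6 (1417266_at) ran from -2.35 to -1.65, Ccl9 (1417936_at) from -2.70 to -1.47 and Cklf (1436242_a_at) from -4.29 to -3.04; the smallest Ccl6 and Ccl9 differences were those without KO 2. Chemokine probe sets called by limma numbered 0, but 1 with array weights and 0 to 1 with an array left out. That one was Cklf 1436242_a_at, without KO 1 and with array weights; Cklf was chosen for this difference, so nothing is read from it. Pathway calls stayed at 0 throughout.

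Over all probe sets there were 2 calls. Without a filter, with a replicate block, with a Y-linked term and with a Gapdh term there were 0 in each case, with a filter at 6 there was 1, with quantile normalization 4 and with array weights 11. With an array left out the count ran from 0 to 16, at 1 when KO 2 was left out, 0 for either WT 1 or WT 2, and 16 for WT 3. The deviations of same-numbered KO and WT mice from their group means had r = -0.05, -0.29 and 0.03. The labels name no pairing, and with 3 mice per group these values cannot exclude a pairing by litter. With the block 0 chemokine probe sets passed. Differences of Ccl20, Ccl25, Cx3cl1, Cxcl16 and the remaining Cklf and Ccl28 probe sets changed sign under at least 1 alternative in 9 of 11 cases.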
